A study of Mus musculus with 6 samples.

Results

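The matrix metalloproteinases, the ADAMTS proteinases and their tissue inhibitors were followed in plasmacytoid dendritic cells (pDCs) grown from mouse bone marrow in which *Gfi1* and *Gfi1b* could be deleted. Members were every gene whose symbol is Mmp, Adamts or Timp followed by its number, taken from probe sets that the platform annotation pairs with exactly 1 symbol, and for each gene the probe set with the highest mean over all arrays was kept. This gave 44 genes of 19937 on the array, namely 22 *Mmp*, 18 *Adamts* and 4 *Timp* genes. Total bone marrow of 3 *Gfi1f/f; Gfi1bf/f; ERCre* mice on the C57BL/6 background was cultured with 25 ng/ml Flt-3L, the cytokine that drives dendritic cell growth. From each mouse, 1 culture received 1 µM tamoxifen (4-OHT) and is labelled KO, and 1 was left untreated and is labelled WT, so there were 3 KO and 3 WT arrays and every KO array has a WT array of the same animal. All 6 cultures carried the floxed alleles and the tamoxifen-inducible Cre, which is expressed from the Rosa26 locus in all cell types, and the ages of the mice are not given in the sources used here. No group of these arrays received tamoxifen without floxed alleles, so the effects of the drug, of active Cre and of the deletion cannot be told apart, and the study describes the deletion in these cultures as inefficient. B220+ CD11c+ cells were sorted, and 200 ng of total RNA per sample was hybridised to Affymetrix Mouse Gene 1.0 ST arrays.

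Matrix metalloproteinases (MMPs) are zinc-dependent endopeptidases made as inactive proenzymes, most of them secreted and some anchored in the membrane, and together they cut nearly all proteins of the extracellular matrix. ADAMTS proteinases are secreted relatives that carry a disintegrin-like domain and thrombospondin repeats, and they trim procollagens, proteoglycans and other matrix proteins. Tissue inhibitors of metalloproteinases (TIMPs) bind and block the active sites of these enzymes. In bone marrow they are known mainly as products of neutrophils, macrophages, osteoblasts, osteoclasts and stromal cells, and they take part in bone turnover and in the release of cells from the marrow.

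The signals of the targeted genes could not check the labels. The *Gfi1b* probe set read 194, 279 and 259 in the KO arrays of mice 1, 2 and 3 and 179, 161 and 155 in the WT arrays, and *Gfi1* read 60.5, 67.1 and 61.9 in KO arrays and 56.1, 47.8 and 43.3 in WT arrays, so neither was lower in KO. The sources used here do not say which probes lie inside the deleted exons, and a probe outside them checks nothing. The study also checked its cultures by genotyping PCR and by RT-qPCR of *Rag*. It reports, without showing the data, that RT-qPCR found more *Rag* in KO cultures before the array measurement. These checks are not analysed here. KO stands throughout for the arrays labelled KO. All 17 measured pDC marker genes, among them those of the sorted proteins B220 and CD11c, lay above background in every array. Deposited intensities had array medians of 72.4 to 72.9 in KO and 69.0 to 70.5 in WT arrays. A level was called above background when the mean over the 6 arrays exceeded 62.2, the 95th percentile of 1208 probe sets of olfactory and vomeronasal receptors, genes that blood cells are not known to use. The arrays of mouse 1 stood apart from those of mice 2 and 3 in the genes described here, so each result is given by mouse.

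Promoter sequences are shown for the genes on which the results turn. *Mmp13*, *Mmp12* and *Mmp8* lie in the chromosome 9 cluster and differed up to 77.5-fold between mice, *Mmp10* lies between them and was not above background in any array, and *Timp1* is an inhibitor outside the cluster. Each window runs from 250 bases before to 50 bases after a RefSeq transcript start of build GRCm38.p6, 5′ to 3′. Capitals mark TGANTCA, the binding motif of AP-1, the Fos and Jun dimer known to drive many *Mmp* genes, or AGGAAG, the motif of PEA3 and other ETS factors, each searched on both strands, so that CTTCCT in capitals is AGGAAG on the other strand.

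*Mmp13* (chr9:7272264-7272563, + strand): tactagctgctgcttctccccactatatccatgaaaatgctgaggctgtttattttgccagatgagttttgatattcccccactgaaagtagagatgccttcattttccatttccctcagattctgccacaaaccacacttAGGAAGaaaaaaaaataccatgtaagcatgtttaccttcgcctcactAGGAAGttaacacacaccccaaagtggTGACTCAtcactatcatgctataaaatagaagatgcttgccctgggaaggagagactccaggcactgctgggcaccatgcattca
*Mmp12* (chr9:7347124-7347423, + strand): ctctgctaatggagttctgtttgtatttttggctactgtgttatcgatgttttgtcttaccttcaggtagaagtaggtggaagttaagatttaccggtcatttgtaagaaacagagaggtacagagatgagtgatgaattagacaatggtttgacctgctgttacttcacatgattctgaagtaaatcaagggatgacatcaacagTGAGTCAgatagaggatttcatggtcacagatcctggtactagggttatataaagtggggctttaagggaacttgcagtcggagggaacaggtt
*Mmp10* (chr9:7502092-7502391, + strand): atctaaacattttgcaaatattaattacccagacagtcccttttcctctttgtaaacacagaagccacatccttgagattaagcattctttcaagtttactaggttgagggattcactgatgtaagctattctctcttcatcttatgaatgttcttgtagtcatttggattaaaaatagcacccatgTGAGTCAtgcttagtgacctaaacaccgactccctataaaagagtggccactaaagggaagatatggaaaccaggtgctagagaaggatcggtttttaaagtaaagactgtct
*Mmp8* (chr9:7558179-7558478, + strand): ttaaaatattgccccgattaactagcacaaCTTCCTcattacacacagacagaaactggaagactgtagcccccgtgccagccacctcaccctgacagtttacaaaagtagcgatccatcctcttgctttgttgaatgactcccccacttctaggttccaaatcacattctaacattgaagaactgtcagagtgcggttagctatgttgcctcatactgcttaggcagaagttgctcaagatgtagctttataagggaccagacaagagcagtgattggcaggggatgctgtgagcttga
*Timp1* (chrX:20869916-20870215, + strand): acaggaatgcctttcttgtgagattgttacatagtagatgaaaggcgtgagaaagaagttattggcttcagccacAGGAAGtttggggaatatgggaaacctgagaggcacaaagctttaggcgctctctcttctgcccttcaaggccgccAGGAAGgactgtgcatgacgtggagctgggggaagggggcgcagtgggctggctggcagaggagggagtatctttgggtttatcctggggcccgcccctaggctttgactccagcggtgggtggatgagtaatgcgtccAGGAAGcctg

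The AP-1 motif began 35 bases before the start in *Mmp13*, 44 in *Mmp12* (in the window shown, 1 of 2 for this gene) and 63 in *Mmp10*, and no match was found in the windows of *Mmp8* and *Timp1*. The windows cover 30 of the 44 members (17 *Mmp*, 9 *Adamts* and 4 *Timp* genes). AP-1 matches stood in 8 of these 30 genes, all of them in the chromosome 9 cluster (*Mmp1a*, *Mmp1b*, *Mmp3*, *Mmp7*, *Mmp10*, *Mmp12*, *Mmp13* and *Mmp20*), and in 7.81% of 32851 windows of all genes. Of these 8 genes, 2 were above background and 6 were not. The AGGAAG motif stood in 15 of the 30 genes and in 35.4% of all windows, and 8 of those 15 genes were above background. A match is a stretch of letters and not a measured binding site.

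In these cells 21 of the 44 members were above background, 12 *Mmp* genes (54.5%), 6 *Adamts* genes (33.3%) and 3 *Timp* genes (75%), against 58.0% of all 21640 probe sets with 1 symbol. The means of the other 23 members lay within the range of the receptor genes up to that percentile, though 4 of them (*Adamts5*, *Adamts6*, *Adamts14* and *Mmp7*) exceeded the array's own percentile in 1 to 3 arrays. *Adamts1*, with a mean of 64.6, and *Mmp21*, with 65.5, lay just above the threshold, and *Adamts6*, with 61.7, and *Mmp7*, with 55.7, just below it. The number of members over each array's own 95th percentile of receptor probe sets was 12, 19 and 20 in the KO arrays of mice 1, 2 and 3, and 13, 22 and 24 in the WT arrays. That percentile was itself higher in KO (64.0, 71.2 and 65.2) than in WT arrays (57.3, 56.0 and 58.1), and with the common threshold of 62.2 the counts were 13, 21 and 20 in KO and 13, 21 and 24 in WT. Fewer members were thus read above background in both cultures of mouse 1 than in any culture of mice 2 and 3. In bulk RNA, fewer cells of a type and less RNA per cell cannot be told apart.

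**Figure D1:**
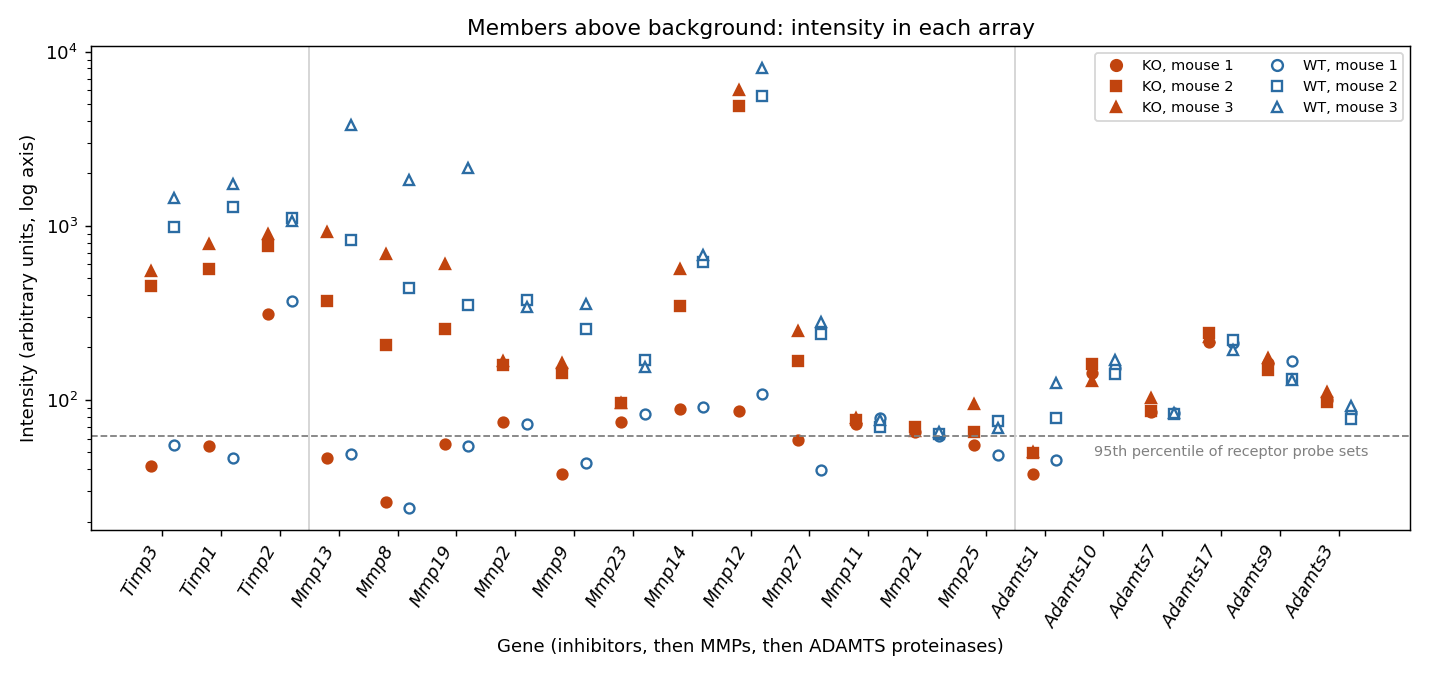
Intensity (arbitrary units, log axis) of the 21 members above background in each array, with arrays labelled KO (filled) left of arrays labelled WT (open) and a symbol for each mouse. For *Timp1*, *Timp3*, *Mmp13*, *Mmp8*, *Mmp19*, *Mmp9*, *Mmp27* and *Mmp25* both circles of mouse 1 lie under the dashed receptor threshold of 62.2 while mice 2 and 3 lie above it. For *Mmp25* all arrays lie near that threshold, from 48.5 to 94.9. The *Adamts* genes other than *Adamts1* differ little between arrays.

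The question of the comparison was which genes of the family differ in pDCs after deletion of *Gfi1* and *Gfi1b*. No member passed the test. With limma and Benjamini-Hochberg adjustment over all 21640 probe sets, 0 of 44 members and 0% of probe sets had an adjusted p under 0.05, and the smallest adjusted p was 0.69 among members and overall. At an unadjusted p under 0.05, 1 member was higher in KO (*Adamts3*) against 5.14% of all probe sets (1113), and 0 members were lower against 1.9% (412). With the mouse as a block the adjusted count was again 0, with a smallest adjusted p of 0.071 over all probe sets and 0.29 among members. The unadjusted count with the block was 12 members lower (27.3% of the 44), 7 *Mmp*, 2 *Adamts* and 3 *Timp* genes, against 5.99% of all probe sets, and 1 member higher against 7.46%. In this fit each KO array is set against the WT array of its own mouse, so that the spread between mice is taken out. The summed signals of stromal, neutrophil and macrophage markers were low in mouse 1 too, and lower in KO than in WT in all 3 mice, and their part in the members' differences was not tested.

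Of the 4 inhibitors, 3 were above background, and all 3 were lower in KO in mice 2 and 3. *Timp3*, the inhibitor that is held in the matrix and also blocks ADAM and ADAMTS enzymes, read 42.0, 449 and 550 in the KO arrays of mice 1, 2 and 3, against 54.8, 985 and 1452 in the WT arrays. It was near background in both cultures of mouse 1 and lower in KO than in WT in all 3 mice, by −0.38, −1.13 and −1.40 on the log2 scale. The mean log2 difference, KO minus WT, was −0.97 with a standard error of 1.52 (n = 3 each; limma adjusted p = 0.90), so it was smaller than the spread between mice. With the mouse as a block the standard error was 0.19, with a limma adjusted p of 0.29.

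*Timp1*, a secreted inhibitor known to be induced by growth factors and cytokines, had intensities of 54.7, 567 and 785 in KO and 46.2, 1284 and 1736 in WT. In mice 2 and 3 the KO arrays had less than the WT arrays, by −1.18 and −1.15 on the log2 scale, and in mouse 1 both were at background with a difference of 0.24. The mean difference of −0.69 had a standard error of 1.64 (limma adjusted p = 0.93; 0.36 with the mouse as a block). *Timp2*, which also serves with MMP14 to activate pro-MMP2, was the inhibitor read well above background in every array, with 309, 768 and 900 in KO and 368, 1113 and 1065 in WT. It was lower in KO in each mouse, by −0.25, −0.54 and −0.24, a mean of −0.34 ± 0.57 (SE; limma adjusted p = 0.90, and 0.32 with the block). *Timp4*, best known from heart and brain, read 27.9, 30.7 and 19.7 in KO and 23.7, 26.5 and 24.0 in WT, all within the receptor range. The KO and WT arrays overlapped for all 4 inhibitors.

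Both gelatinases, the enzymes that cut denatured collagen and basement membrane collagen, had lower KO than WT values in mice 2 and 3. *Mmp2*, known as the gelatinase of stromal cells, read 74.8, 159 and 166 in KO and 72.3, 377 and 342 in WT, a difference of 0.05, −1.25 and −1.04 within mice 1, 2 and 3. The mean was −0.75 ± 0.68 (SE; limma adjusted p = 0.81, and 0.32 with the block). *Mmp9*, the gelatinase stored in neutrophil granules, read 37.7, 143 and 162 in KO and 43.3, 255 and 356 in WT and was lower in all 3 mice, with a mean of −0.72 ± 0.92 (SE; limma adjusted p = 0.87, and 0.30 with the block). When both arrays of mouse 1 were left out, 0.49% of all probe sets were lower at an adjusted p under 0.05, and *Mmp2* was the 1 member among them (−1.14, limma adjusted p = 0.018, n = 2 each). *Timp3*, with −1.27, and *Timp1*, with −1.16, had limma adjusted p values of 0.081 and 0.097 there. That fit had no block. Without mouse 2 or without mouse 3 instead, 0 probe sets were called. *Mmp2* then differed by −0.50 and −0.60, with limma adjusted p values of 0.9998 and 0.9999.

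Of the 4 collagenase genes, *Mmp13* and *Mmp8* were above background. *Mmp13*, the main collagenase of bone and cartilage in mice, read 46.7, 369 and 922 in KO, against 48.8, 830 and 3779 in WT. It was the 1 member at least 2-fold lower in KO on the mean of log2 values (−1.09 ± 1.78, SE; limma adjusted p = 0.90, and 0.31 with the block), where 0.273% of all probe sets were. The difference was −0.06, −1.17 and −2.04 in mice 1, 2 and 3, so it came from mice 2 and 3. *Mmp8*, the collagenase of neutrophil granules, read 26.1, 208 and 689 in KO and 24.1, 441 and 1834 in WT, with differences of 0.12, −1.09 and −1.41 and a mean of −0.79 ± 1.83 (SE; limma adjusted p = 0.93, and 0.33 with the block). *Mmp1a*, with a mean of 11.6 in KO and 11.3 in WT, and *Mmp1b*, with 8.85 in KO and 9.04 in WT, the mouse relatives of human MMP1, were at background in every array.

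*Mmp12*, the elastase of macrophages, read 86.9, 4888 and 6052 in KO and 108, 5526 and 8053 in WT. It was lower in KO in all 3 mice but by small amounts, −0.32, −0.18 and −0.41, with a mean of −0.30 ± 2.23 (SE; limma adjusted p = 0.98, and 0.33 with the block, where the standard error was 0.10). *Mmp19*, a secreted enzyme found in several tissues, read 55.8, 257 and 606 in KO and 54.3, 352 and 2150 in WT, with differences of 0.04, −0.45 and −1.83 (limma adjusted p = 0.92, and 0.38 with the block). For *Mmp12* the gap between mice was therefore far wider than the gap between KO and WT, while for *Mmp19* most of the difference lay in mouse 3. *Mmp14*, the membrane-anchored enzyme that activates pro-MMP2 and cuts collagen at the cell surface, read 89.1, 344 and 565 in KO and 91.5, 622 and 683 in WT, with differences of −0.04, −0.85 and −0.27 (limma adjusted p = 0.94, and 0.37 with the block). *Mmp27*, a secreted enzyme whose gene is part of the chromosome 9 cluster, read 59.1, 167 and 250 in KO and 39.8, 238 and 282 in WT. It was higher in KO by 0.57 in mouse 1, where it was near background, and lower by −0.51 and −0.17 in mice 2 and 3. *Mmp23*, held in the membrane by its N-terminal anchor, read 74.3, 96.6 and 95.7 in KO and 82.7, 169 and 154 in WT and was lower in all 3 mice (mean −0.55 ± 0.29, SE; limma adjusted p = 0.72, and 0.31 with the block).

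The remaining *Mmp* genes above background are *Mmp11*, *Mmp21* and *Mmp25*. *Mmp11*, or stromelysin-3, which furin activates inside the cell, read 72.9, 76.7 and 78.9 in KO and 78.7, 70.2 and 76.9 in WT. *Mmp21* read 65.4, 69.9 and 65.9 in KO and 62.4, 64.0 and 65.2 in WT. *Mmp25*, the membrane-anchored enzyme of leukocytes, read 55.1, 65.3 and 94.9 in KO and 48.5, 75.9 and 69.4 in WT. Their mean differences were 0.02, 0.07 and 0.14 on the log2 scale, and the sign for *Mmp11* turned with another normalization (−0.03 after quantile normalization once more) and that for *Mmp25* without mouse 3 (−0.016). *Mmp7*, the matrilysin of epithelia, was not above background but was among the 3 members with the smallest p in the higher direction. It read 59.1, 74.2 and 55.1 in KO and 51.8, 41.8 and 52.3 in WT, so that every KO array was above every WT array (0.36 ± 0.15, SE; limma adjusted p = 0.70). The other *Mmp* members, *Mmp3*, *Mmp10*, *Mmp16*, *Mmp17*, *Mmp20*, *Mmp24* and *Mmp28*, were not above background, with differences between −0.31 (*Mmp16*) and 0.27 (*Mmp3*).

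Of the 6 *Adamts* genes above background, all but *Adamts1* were lower or higher by less than 0.3 on the log2 scale, and none of these 5 had the low values of mouse 1. *Adamts17*, which is tied to fibrillin fibres, read 215, 242 and 230 in KO and 211, 221 and 194 in WT. *Adamts9*, a versican-cutting enzyme, read 162, 148 and 174 in KO and 168, 132 and 131 in WT. *Adamts10*, which binds fibrillin, read 142, 161 and 129 in KO and 153, 140 and 170 in WT. In none of these 3 genes was mouse 1 the lowest in both conditions. *Adamts7*, which cuts cartilage oligomeric matrix protein, read 84.7, 86.7 and 103 in KO and 83.9, 83.5 and 84.5 in WT.

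*Adamts3*, which removes the N-propeptide of procollagens and helps to process VEGF-C, was the 1 member at an unadjusted p under 0.05. It read 99.7, 97.8 and 111 in KO and 83.7, 77.4 and 92.5 in WT, every KO array above every WT array (0.28 ± 0.11, SE; limma adjusted p = 0.69). The gene has 16 probe sets, of which 3 were above background. Of these 3, the kept one differed by 0.28 and the others by −0.005 and −0.03. Over all 16 the differences ran from −0.17 to 0.35 with 11 of 16 above 0, so the probe sets of *Adamts3* did not all move one way. When log2 values were averaged over the probe sets of a gene, no member had an unadjusted limma p under 0.05. *Adamts9* has 6 probe sets, with differences from −0.04 to 0.25, and *Adamts17* has 5, from −0.09 to 0.28.

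*Adamts1* and *Adamts6* were the *Adamts* members with the smallest p in the lower direction. *Adamts1*, which cuts aggrecan and versican, read 37.7, 49.7 and 50.2 in KO and 45.4, 79.1 and 125 in WT, lower in all 3 mice (−0.75 ± 0.36, SE; limma adjusted p = 0.71, and 0.30 with the block). *Adamts6*, a relative of *Adamts10*, read 63.4, 47.9 and 43.5 in KO and 87.2, 58.9 and 69.2 in WT, also lower in all 3 mice (−0.48 ± 0.20, SE; limma adjusted p = 0.70, and 0.29 with the block). *Adamts1* passed the background threshold through 2 WT arrays, and *Adamts6* did not pass it. *Adamts16*, not above background, read 44.1, 43.8 and 40.5 in KO and 39.7, 37.4 and 36.1 in WT (0.18 ± 0.09, SE; limma adjusted p = 0.72). *Adamts5*, an aggrecan-cutting enzyme, read 18.6, 22.6 and 28.0 in KO and 17.2, 32.9 and 70.8 in WT, with 1 array, the WT array of mouse 3, above the receptor threshold. The others, *Adamts4*, *Adamts8*, *Adamts12*, *Adamts13*, *Adamts14*, *Adamts15*, *Adamts18*, *Adamts19* and *Adamts20*, were not above background and differed by −0.18 (*Adamts12*) to 0.25 (*Adamts20*).

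Set side by side, the 3 subfamilies had median differences, KO minus WT, of −0.52 (*Timp*, 4 genes), −0.03 (*Mmp*, 22 genes) and 0.10 (*Adamts*, 18 genes), against 0.03 over all probe sets. By mouse, the *Timp* median was −0.01, −0.83 and −0.72 in mice 1, 2 and 3, the *Mmp* median 0.03, −0.09 and −0.12, and the *Adamts* median 0.02, 0.15 and 0.09. The 12 *Mmp* genes above background had a median of −0.47 (0.00, −0.66 and −0.55 in mice 1, 2 and 3) and the 10 not above it 0.11. For *Adamts* the medians were 0.12 (6 genes above background) and 0.07 (12 genes not above it). Dim signals as such read higher in KO: the median was 0.14 over the receptor probe sets and 0.11 over all probe sets not above background, against −0.03 over all above it. The 6 *Adamts* genes above background, with 0.12, stood beside −0.03 for all such probe sets. The 12 not above it, with 0.07, stood beside 0.11. All these medians are a description and were not tested. Lower values in KO in all 3 mice were found in 11 members, 6 *Mmp*, 3 *Adamts* and 2 *Timp* genes, which is 25% of them against 17.4% of all probe sets. Higher values in all 3 mice were found in 9 members (20.5%), 6 of them *Adamts* genes, against 21.3%. Differences of at least 2-fold lower in both mouse 2 and mouse 3 were found in 5 members, *Mmp2*, *Mmp8*, *Mmp13*, *Timp1* and *Timp3*, which is 11.4% against 0.481% of all probe sets. Every KO array lay above every WT array in 7 members (5 *Adamts* genes, *Mmp7* and *Mmp21*), which is 15.9% against 10.2%. Of these 7, 4 were not above background. Every KO array lay below every WT array in 1 member, *Adamts14* (2.27% against 4.65%).

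**Figure D2:**
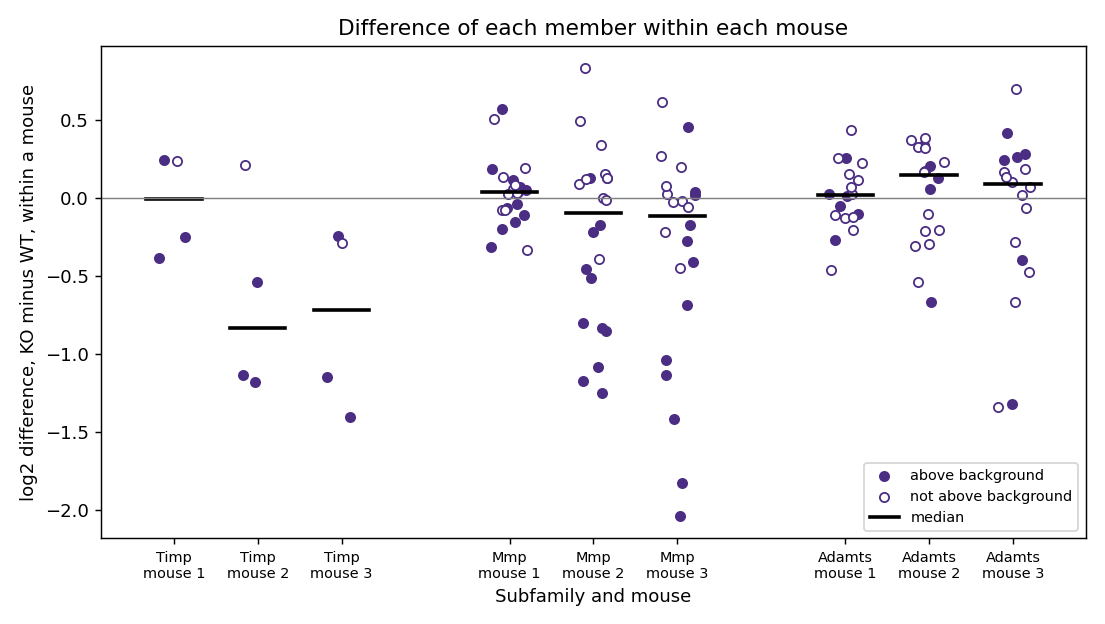
Log2 difference, KO minus WT by label, of each of the 44 members within each mouse, by subfamily; filled points are members above background, open points are not, and bars are medians. In mouse 1 all differences lie between −0.46 and 0.57, while in mice 2 and 3 the lowest points are *Mmp* and *Timp* genes above background, down to −2.04 (*Mmp13* in mouse 3). In mouse 3 *Adamts5*, not above background, and *Adamts1* are low too, at −1.34 and −1.32.

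The study's own list of genes that differed by at least 2-fold between WT and KO, chosen on these same arrays, holds 5 members, *Mmp8*, *Mmp13*, *Mmp19*, *Timp1* and *Timp3*. Being chosen here, it is not independent evidence of their direction. On the mean of log2 values 1 of these 5 (*Mmp13*) reached a 2-fold difference, and on the ratio of arithmetic means 5 members did, the same 5 genes (11.4% of members against 0.518% of all probe sets).

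For several members the differences between mice were wider than those between KO and WT. Among WT arrays, *Mmp12* was 51.1-fold higher in mouse 2 and 74.5-fold higher in mouse 3 than in mouse 1. *Mmp13* was 17.0-fold and 77.5-fold higher, *Mmp8* 18.3-fold and 76.1-fold, *Timp1* 27.8-fold and 37.6-fold, and *Timp3* 18.0-fold and 26.5-fold. Since the values of mouse 1 were near background for these genes other than *Mmp12*, the folds depend on the level of the background. The WT array of mouse 1 lay at least 4-fold below both other WT arrays in 10 members, 8 *Mmp* and 2 *Timp* genes, which is 22.7% of members against 1.6% of all probe sets. The KO array of mouse 1 did so against both other KO arrays in 6 members, *Mmp8*, *Mmp12*, *Mmp13*, *Mmp19*, *Timp1* and *Timp3*, which is 13.6% against 0.855%. No *Adamts* gene was in either count.

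Mice 2 and 3 differed from each other in fewer genes. *Mmp13*, *Mmp8* and *Mmp19* were 4.55-fold, 4.16-fold and 6.11-fold higher in the WT array of mouse 3 than in that of mouse 2, the 3 members past 4-fold (6.82% against 0.106% of all probe sets). In the KO arrays the same 3 genes were 2.50-fold, 3.32-fold and 2.36-fold higher in mouse 3. *Mmp2*, *Mmp14* and *Timp2* were close in the WT arrays of mice 2 and 3, with ratios of mouse 3 to mouse 2 of 0.909, 1.10 and 0.957. The WT levels of mice 2 and 3 were thus near each other for these 3 genes and apart for *Mmp8*, *Mmp13* and *Mmp19*.

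Of the *Mmp* genes, 10 neighbour each other on chromosome 9, in the order *Mmp13*, *Mmp12*, *Mmp1b*, *Mmp3*, *Mmp1a*, *Mmp10*, *Mmp8*, *Mmp27*, *Mmp20* and *Mmp7*, with no other protein-coding RefSeq gene of GRCm38.p6 among them, and 12 lie elsewhere. In the cluster 4 genes were above background (*Mmp13*, *Mmp12*, *Mmp8* and *Mmp27*), and all 4 had the low values of mouse 1. The other 6 were not above background. *Mmp10*, whose promoter holds the AP-1 motif as that of *Mmp13* does, read 39.1, 36.5 and 43.3 in KO and 38.6, 36.8 and 37.7 in WT, and *Mmp3* read 26.8, 32.0 and 36.4 in KO and 25.3, 29.4 and 23.8 in WT. *Mmp8*, with no AP-1 match in its window, had the between-mouse pattern of *Mmp13*. Whether the motif bears on these levels was not tested.

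**Figure D3:**
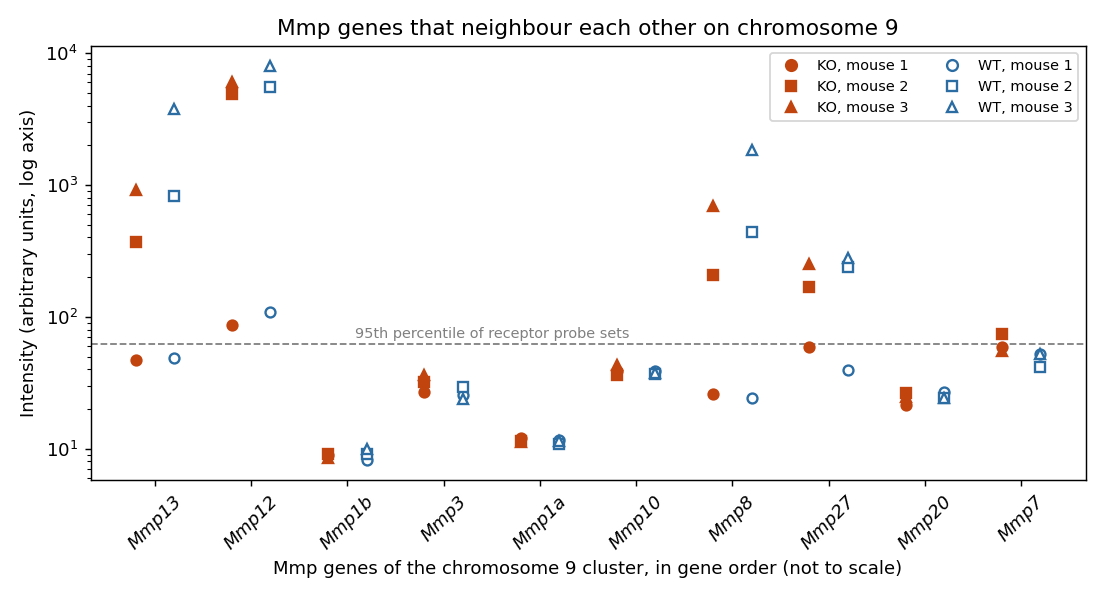
Intensity (arbitrary units, log axis) of the 10 *Mmp* genes of the chromosome 9 cluster in gene order, arrays labelled KO (filled) left of arrays labelled WT (open), a symbol per mouse. *Mmp13*, *Mmp12*, *Mmp8* and *Mmp27* have mice 2 and 3 above the dashed receptor threshold of 62.2, and *Mmp10* between them stays under it in all 6 arrays.

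Marker genes of other cell types moved with these members. Of 24 measured stromal markers, 22 were above background (not *Cnn1* and *Ptn*). Their summed intensity was 1526, 5565 and 5598 in the KO arrays of mice 1, 2 and 3 and 1616, 14141 and 13871 in the WT arrays, low in mouse 1 and lower in KO in mice 2 and 3. Over each array's own receptor threshold were 8, 21 and 21 of the 24 markers in KO and 11, 23 and 23 in WT, where that threshold was lower. Of the 24, 9 were at least 2-fold lower in KO, against 0.273% of all probe sets. Among the 9 were *Lox*, which crosslinks collagen (−1.57), and *Sparc*, a collagen-binding protein (−1.23). None of the 24 had a limma adjusted p under 0.05. With the block 19 were lower and 0 higher at an unadjusted p under 0.05, against 5.99% and 7.46% of all probe sets.

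Neutrophil markers, 15 of 18 above background (not *Ctsg*, *Cxcr2* and *Ly6g*), summed to 1205, 3769 and 5996 in KO and 2027, 10819 and 14413 in WT, and 8, 10 and 13 of them in KO and 12, 15 and 15 in WT were over the array's own threshold. *Ngp*, a granule protein, differed by −2.26 and *Ltf*, lactoferrin, by −1.42. Of the 18, 13 were lower in KO (against 44.1% of all probe sets) and 8 at least 2-fold lower (against 0.273%). With the block 10 were lower and 1 higher at an unadjusted p under 0.05, against 5.99% and 7.46% of all probe sets. The 1 higher was *Ctsg*, cathepsin G (0.36), and the other genes of primary granules, *Mpo*, *Prtn3* and *Elane*, had differences of 0.44, 0.22 and 0.12 (named after their values were seen). Monocyte and macrophage markers, 15 of 17 above background (not *Marco* and *Cd163*), summed to 9921, 38651 and 41009 in KO and 12068, 45307 and 45601 in WT, with 12, 15 and 15 of 17 in KO and 13, 16 and 15 in WT over the array's threshold. Of the 17, 15 were lower in KO (against 44.1% of all probe sets). *Fcrls* (−1.98) was the 1 at least 2-fold lower (against 0.273%). It was also the 1 lower at an unadjusted limma p under 0.05 (against 1.9%), and none had a limma adjusted p under 0.05. With the block 7 were lower and 0 higher at an unadjusted p under 0.05, against 5.99% and 7.46%. The pDC markers summed to 49912, 36792 and 33818 in KO and 52877, 28493 and 23608 in WT. Their sums were highest in mouse 1. They were higher in KO than in WT in mice 2 and 3, and lower in KO in mouse 1. *Ly6d* (0.76) was the 1 pDC marker of 17 at an unadjusted limma p under 0.05, where 5.14% of all probe sets were higher. With the block 4 pDC markers were higher and 0 lower, against 7.46% and 5.99% of all probe sets. The summed level of the *Timp* genes was 434, 1814 and 2254 in KO and 493, 3408 and 4277 in WT. The *Mmp* sum was 1072, 7213 and 10093 in KO and 1067, 9338 and 18175 in WT, and the *Adamts* sum 1209, 1244 and 1251 in KO and 1228, 1195 and 1312 in WT. Thus the *Timp* and *Mmp* sums were low in mouse 1 as those of the stromal, neutrophil and macrophage markers were, and the *Adamts* sum was not. A sum rests on its brightest genes and does not describe each member. *Mmp12* alone read 4888 of the *Mmp* sum of 7213 in the KO array of mouse 2. *Adamts1* was lowest in mouse 1 in both conditions.

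**Figure D4:**
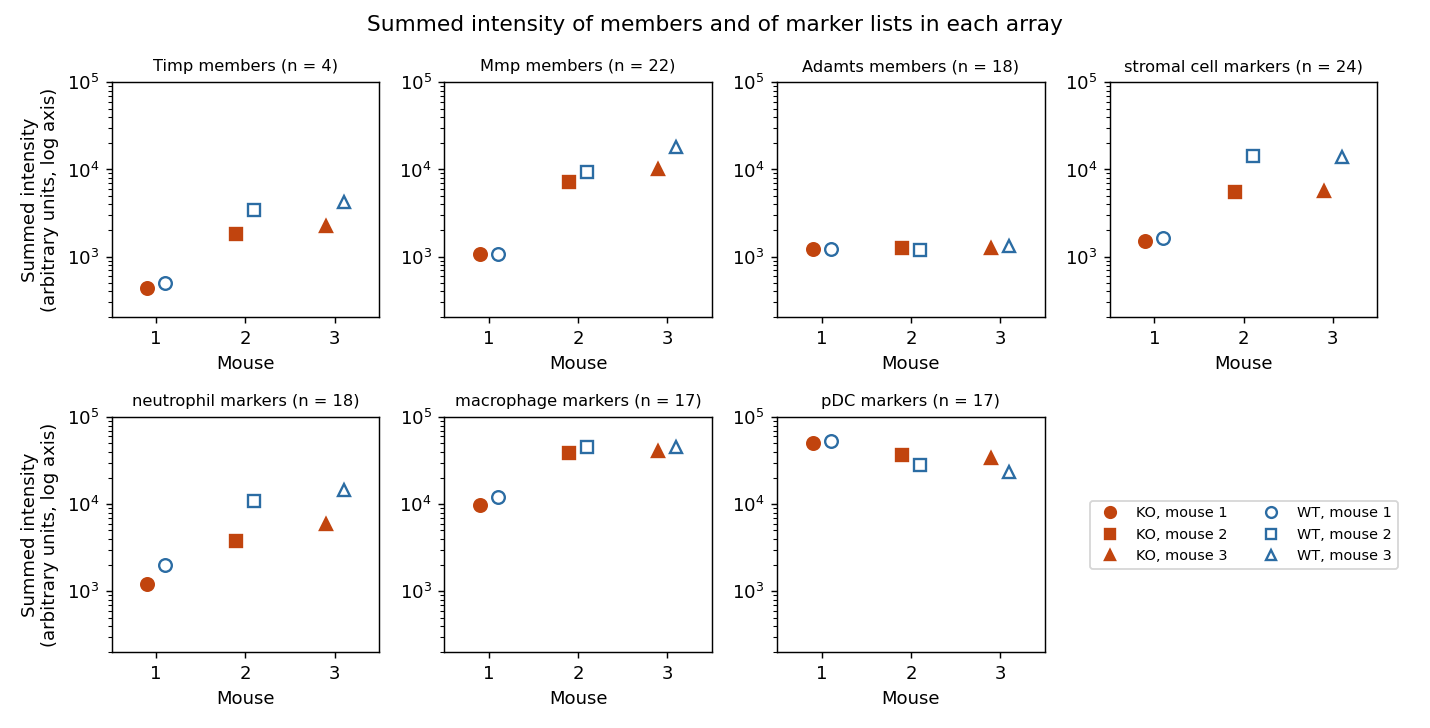
Summed intensity (arbitrary units, log axis) of the *Timp*, *Mmp* and *Adamts* members and of the stromal, neutrophil, macrophage and pDC marker lists in each array, by mouse, labelled KO (filled) left of labelled WT (open). The *Timp*, *Mmp*, stromal, neutrophil and macrophage sums are low in mouse 1, the *Adamts* sum lies between 1195 and 1312 in all arrays, and the pDC sum is highest in mouse 1.

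The matrix proteins that these enzymes cut shared the pattern in part. Of 23 measured substrates, 18 were above background, and 17 were lower in KO, against 44.1% of all probe sets. Their median was −0.44 (0.13, −0.63 and −0.69 in mice 1, 2 and 3). None had a limma adjusted p under 0.05, and at an unadjusted p under 0.05 1 was lower (*Lamc1*, a laminin chain, −0.74) and 1 higher (*Eln*, elastin, 0.24), while the block gave 11 lower and 0 higher (against 5.99% and 7.46% of all probe sets). *Fn1*, fibronectin, read 70.6, 805 and 1131 in KO and 87.5, 2433 and 3765 in WT (−1.21 ± 1.69, SE). *Tnc*, tenascin C (−1.09), and *Col1a2*, a chain of type I collagen (−1.02), were also at least 2-fold lower on the mean of log2 values. That makes 3 of the 23 substrates, against 0.273% of all probe sets.

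Of 18 measured activators, further inhibitors and docking or clearance partners, 10 were above background, with a median of −0.07. At an unadjusted limma p under 0.05 1 was lower (*Furin*, the convertase that activates membrane-anchored MMPs, −0.33) and 0 were higher, and with the block 6 were lower and 0 higher, against the same shares of all probe sets. The 2 at least 2-fold lower (against 0.273% of all probe sets) were *Thbs1* (−1.42) and *Thbs2* (−1.03), the thrombospondins, which bind MMP2 and aid its uptake. *Thbs1* read 143, 803 and 1411 in KO and 296, 2950 and 3576 in WT, lower in all 3 mice. Of 22 ADAM, ADAMTS-like and tolloid genes, 13 were above background, with a median of 0.02. *Adam10*, a membrane sheddase that cleaves Notch, was the 1 at an unadjusted p under 0.05 (354, 364 and 305 in KO, against 417, 426 and 491 in WT, a difference of −0.38). With the block 4 were lower and 2 higher, against 5.99% and 7.46% of all probe sets.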

How the data were processed

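RNA of sorted pDC cultures from 3 mice was measured on 6 arrays. The deposited values are linear intensities per probe set, already normalized between arrays by the authors; the methods of background correction, normalization and summary are not given in the sources used here. No columns of the authors' comparisons were present. Members and gene lists were chosen with earlier results of these data known. Intensities were log2-transformed. Of 34760 probe sets, 21640 had 1 symbol, 1321 several and 11799 none, and all 44 members matched a RefSeq symbol (GRCm38.p6). KO and WT were compared with lmFit and eBayes of limma 3.58.1 (R 4.3.3) in a two-sided test, adjusted by Benjamini-Hochberg over all 21640 with a threshold of 0.05 and no covariate; the study names none for its array comparison. Tables were made with Python 3.11.15, numpy 2.4.6 and pandas 2.3.3. The fit was also run on simulated data in which mice differed far less than they did for several members here, so that run does not cover these members. Samples from the same animal pair the arrays, and each KO array, after its group mean was taken off, correlated best with the WT array of its own mouse (r = 0.81, 0.51 and 0.67 for mice 1, 2 and 3), so a fit with the mouse as a replicate block was an alternative. Other alternatives were quantile normalization once more, median centring, a floor, leaving out dim probe sets, averaging probe sets, a trended fit, other background percentiles, arithmetic means, and leaving out arrays or mice. Named were all *Timp* genes, *Mmp* and *Adamts* genes above background, those past 2-fold, the 3 smallest p per direction and members on the study's list; other members are given by name and range, and *Adamts5* and single members in counts were named after their values were seen. List genes were named past 2-fold or at an unadjusted p under 0.05, but of the stromal and neutrophil markers past 2-fold only examples were named. The number of arrays limits the precision.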

Additional observations from a re-analysis of the deposited data

How the results depend on the processing

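With the mouse as a replicate block, limma again called 0 probe sets at an adjusted p under 0.05, while 13 members had an unadjusted p under 0.05 there (1 without the block). That count was 2 after quantile normalization once more, 2 with a floor at the 20th percentile of all values, 2 with a trended and robust fit, and 0 with probe sets averaged. The floor gave 2 probe sets called over the whole array. At least 2-fold lower were 2 members after centring each array on its median and 5 on arithmetic means (11.4% against 0.518% of all probe sets). For altered settings other than the block and arithmetic means, the matching shares of all probe sets are not given. Those member counts therefore have no array-wide rate beside them. With dim probe sets left out the *Mmp* median was −0.72 and the *Timp* median −0.69, so the order of the subfamilies was not kept, the *Adamts* median was 0.011 after quantile normalization. *Mmp11* turned to −0.029 and −0.037, and *Timp4* to −0.047 and −0.0033, after quantile normalization and centring.

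Leaving out single arrays or mice gave 0 to 108 probe sets called (108 without mouse 1), 0 to 13 members at an unadjusted p under 0.05 (13 without mouse 1 and 8 without the WT array of mouse 1), 0 to 11 members at least 2-fold lower (11 without the WT array of mouse 1, 6 without mouse 1, 7 without the KO array of mouse 3, 0 without the KO array of mouse 1), an *Mmp* median of −0.083 to 0.15 and a *Timp* median of −1.62 to 0.17. Leaving out 1 array of a pair brings the difference between mice into the contrast. The member counts with arrays or mice left out have no array-wide rate beside them either, so they are not read as particular to the members. Leaving out both arrays of a mouse turned *Mmp11* to −0.037, *Mmp27* to 0.20 and *Timp4* to −0.027 (mouse 2), *Adamts10* to 0.047, *Mmp25* to −0.016 and *Mmp27* to 0.029 (mouse 3), and *Timp4* to −0.039 (mouse 1). With single arrays left out, the lowest and highest differences of members whose sign turned were −0.032 and 0.051 for *Mmp11*, −2.28 and 1.69 for *Mmp12*, −2.82 and 0.32 for *Mmp13*, −1.33 and 0.38 for *Mmp14*, −2.08 and 0.57 for *Mmp19*, −0.080 and 0.31 for *Mmp25*, −0.94 and 0.56 for *Mmp27*, −2.53 and 0.59 for *Mmp8*, −2.37 and 0.51 for *Timp1*, −0.86 and 0.13 for *Timp2*, −2.46 and 0.21 for *Timp3*, and −0.078 and 0.24 for *Timp4*. Members above background numbered 20 to 22 across these settings, 25 with the 90th percentile of receptor probe sets and 15 with the 99th. With 3 arrays a group and the pairing by mouse set aside, exact permutation of labels can give no p below 0.1. Swapping labels only within mice allows fewer arrangements, so its limit is higher. Signal over background is the limit for mouse 1, where 6 of 22 *Mmp* genes were over the array's own threshold in KO and 6 in WT.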
